A study of Mus musculus with 65 samples.

Results

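The interferon-stimulated genes described here are 41 genes, named by symbol, that interferon is known to induce. All 41 were found among the 50686 genes of the count table. They were followed in bulk RNA from the retinas of 65 adult C57BL/6J mice in 16 groups. CD mice received control diet (n = 5). PLX mice received the CSF1R inhibitor PLX5622 in the diet, which removes microglia, for 2, 5, 7, 10, 14 or 21 days (PLX2 to PLX21). RP mice were taken 3, 5, 7, 10, 14 or 21 days or 2 months after the end of a PLX5622 diet (RP3 to RP21, and RP2M), while microglia returned. PLX5 had 3 mice, RP7 had 6, and the other PLX and RP groups had 4 each. LPS_CD mice were labelled LPS + vehicle (n = 3) and LPS_PLX mice PLX5622 + LPS (n = 4). The study lists the second of these as a repopulated group, and lipopolysaccharide (LPS), a bacterial cell wall component, was given systemically. How long repopulation had lasted before LPS, and how long after LPS the retinas were taken, are not given in the sources used here. The labels name no transgene, and each library was made from whole retina, so fewer cells of a type and less RNA per cell cannot be told apart.

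Type I and type II interferons bind receptors on nearly all cells and act through JAK kinases and STAT proteins. Type I interferon brings a complex with STAT2 and IRF9 to the interferon-stimulated response element, and type II interferon acts through the gamma-activated site. The genes they induce include antiviral effectors, nucleic acid sensors, GTPases that act on intracellular microbes, and regulators of the response itself such as Irf7 and Usp18. LPS can start this programme through TLR4, and microglia, endothelium and infiltrating leukocytes are among the retinal cells that can answer. By role the 41 genes are the transcription factor genes Irf7, Irf9, Irf1 and Stat2, then Ifit1, Ifit2 and Ifit3, whose products bind viral RNA or steer its sensing, then Isg15 and its protease gene Usp18, and Oasl2, Oas1a, Oas2 and Oas3 of the oligoadenylate synthetase family. Restriction factors, TRIM proteins and a receptor transporter are encoded by Mx1, Mx2, Bst2, Trim30a, Trim30d, Trim25 and Rtp4, and nucleic acid sensors by Ifih1, Ddx58, Dhx58, Zbp1 and Eif2ak2. Gbp2, Gbp3, Gbp6, Gbp7, Igtp, Irgm1 and Iigp1 are interferon-inducible GTPase genes. Ifi27, Ifi35, Ifi44, Xaf1, Rsad2, Parp14 and Cmpk2 are other effectors, and Siglec1 and Ch25h are known from macrophages.

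Promoter letters were read for 29 of the 41 genes from RefSeq on GRCm38.p6, each window running from 250 bases before to 50 after a transcription start. The others, Mx1, Mx2, Rtp4, Iigp1, Usp18, Zbp1, Gbp6, Siglec1, Ifi27, Dhx58, Oas2 and Parp14, had no entry. The response element was searched as GAAANNGAAA on both strands, with overlapping matches counted, and stood in the windows of 18 of the 29 genes (62.1%), against 3.99% of the 27025 genes with a window. The gamma-activated site, searched as TTCNNNGAA, stood in 8 of the 29 (27.6%), against 9.55% of those genes. The 150 bases before the start are shown for some of the genes described below, with every match to the response element in capitals. Isg15, Ifit1 and Bst2 hold it. Oasl2 and Ch25h, and Irf7, which is not shown, do not hold these letters in the window searched, which says nothing about the factors that bind there.
Isg15, chr4:156200819-156200968, minus strand: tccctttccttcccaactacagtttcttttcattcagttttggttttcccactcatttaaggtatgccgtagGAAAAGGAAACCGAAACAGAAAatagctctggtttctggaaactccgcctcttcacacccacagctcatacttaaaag
Ifit1, chr19:34640739-34640888, plus strand: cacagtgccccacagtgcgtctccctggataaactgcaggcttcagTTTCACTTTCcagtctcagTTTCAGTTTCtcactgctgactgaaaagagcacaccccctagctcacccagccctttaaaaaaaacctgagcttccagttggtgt
Bst2, chr8:71537473-71537622, minus strand: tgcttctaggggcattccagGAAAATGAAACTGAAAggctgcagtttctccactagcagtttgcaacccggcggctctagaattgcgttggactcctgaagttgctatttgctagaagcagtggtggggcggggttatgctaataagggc
Oasl2, chr5:114896784-114896933, plus strand: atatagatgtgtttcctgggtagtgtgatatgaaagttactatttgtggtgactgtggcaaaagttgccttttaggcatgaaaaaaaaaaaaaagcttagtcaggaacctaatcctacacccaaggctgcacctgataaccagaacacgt
Ch25h, chr19:34475149-34475298, minus strand: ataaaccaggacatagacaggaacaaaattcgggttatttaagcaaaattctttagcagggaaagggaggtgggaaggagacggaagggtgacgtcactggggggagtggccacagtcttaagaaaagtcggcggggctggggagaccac

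The libraries held 5106429 to 8760443 counts (median 7944665), so that 3 counts, taken as the floor of detection, corresponded to a CPM of 0.342 to 0.587 (CPM, a gene's counts scaled to TMM library size). Interferon-stimulated genes were expressed at a low level in the unchallenged retina. Of the 41 genes, 26 had a mean of at least 1 CPM over the 65 mice and 15 did not. Per length, the highest levels in CD were those of Stat2 at 16.5 ± 3.19 FPKM, Irf9 at 9.48 ± 1.75 FPKM and Irf7 at 8.15 ± 1.41 FPKM (SD, n = 5), followed by the RNA sensor regulator Trim25 at 6.93 ± 0.784 FPKM and Oasl2 at 4.79 ± 0.524 FPKM. Irf1, the fourth transcription factor gene, was at 2.80 FPKM. Oas1a, Mx1, Trim30d, Zbp1, Siglec1 and Ch25h did not exceed 3 counts in any CD mouse. Mx1 exceeded 3 counts in 1 mouse of 65, as did Oas1a. The annotation (GENCODE M21 on GRCm38) lists 40 of the 41 genes as protein coding and Mx2 as a polymorphic pseudogene. Exons of 14 genes overlap those of another annotated gene, and whether the libraries kept strand is not given, so shared reads of opposite-strand neighbours cannot be told apart. Levels of genes with near-identical relatives, such as Ifit3, Oas1a and the Trim30 and Gbp genes, are likewise uncertain.

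The markers of rod and cone photoreceptors summed to 35522 CPM or more in every mouse, and the libraries thus held retinal RNA. The sample titles end in RE (39 mice) or re (26 mice), a mark the labels do not explain. It moved with the genes described here. The mean of log2(CPM + 1) over the 41 genes was 1.88 ± 0.0756 (SD) in the 39 unchallenged RE mice and 1.80 ± 0.0937 in the 19 unchallenged re mice. All LPS_CD, LPS_PLX and RP2M mice are re mice, whereas CD holds 3 RE and 2 re mice. The suffix was therefore a term of every comparison whose mice carried both, and the differences between the LPS groups and CD then rest on the 2 re mice of CD.

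In LPS_CD against CD, a comparison of challenged with unchallenged retina with resident microglia, most interferon-stimulated genes lay higher but none passed the call rule (FDR below 0.01 and a log2 fold change beyond 1 in edgeR's quasi-likelihood test). All 41 genes were tested. In this comparison 0.0% of the 23606 tested genes passed the rule. DESeq2 called 20 genes higher and 1 lower and limma 8 and 4, none of them among the 41. The likelihood ratio test called 53 higher and 5 lower, among them Irf7 and Siglec1. The study itself, with edgeR at these thresholds, reported differential genes between LPS-challenged and naive retinas, most of them up-regulated. At an unadjusted p below 0.05, 12 of the 41 were higher (29.3%) and 0 were lower, against 5.63% and 4.91% of all genes tested. Siglec1, Ch25h and Trim30d, with 1 count each over the CD mice, passed the filter on low counts only through the LPS_CD mice and lend the count no support. Of the 26 genes with a mean of at least 1 CPM, 8 were higher (30.8%). The log2 fold change was positive for 38 of the 41 genes, with a median of 0.42 against 0.01 over all genes, and for 24 of the 26 genes with a mean of at least 1 CPM (median 0.23). That mean was taken over all 65 mice, and Bst2, at 0.935 CPM in the 58 unchallenged mice, reached it through the LPS groups. Without the first CD mouse, 1 of the 2 re mice of CD, 5 of the 41 were higher at the unadjusted threshold instead of 12. Without the first LPS_CD mouse the median was 0.72. The lowest FDR among the 41 was 0.179.

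Irf7, the transcription factor that amplifies type I interferon production, had the lowest FDR of them (chromosome 7, 141262706 to 141266481, minus strand, overlapping an exon of Phrf1 on the opposite strand). Its level was 17.3, 13.8, 12.8, 12.9 and 18.6 CPM in the 5 CD mice. It was 22.2, 52.5 and 77.4 CPM in the 3 LPS_CD mice. Every LPS_CD mouse lay above every CD mouse, and the first LPS_CD mouse lay close to them. The difference was 1.495 ± 0.35 on the log2 scale (SE), with an FDR of 0.179.

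Siglec1, a sialic acid receptor of macrophages, and Ch25h, which makes the oxysterol 25-hydroxycholesterol, went from the floor to a measurable level. Siglec1 had 1 count over the 5 CD mice, and 0.516, 4.2 and 3.51 CPM in the LPS_CD mice. The ratio of its counts per library size was 113, with an exact 95% interval of 19.5 to 4523. Ch25h likewise had 1 count over the CD mice, and 0.516, 1.65 and 2.63 CPM in LPS_CD. Its ratio was 66.0 (11.1 to 2673). Siglec1 lies on chromosome 2 (131069220 to 131086765) and Ch25h on chromosome 19 (34473778 to 34475164), both on the minus strand. For both genes all 3 LPS_CD mice lay above all CD mice, but these intervals cover counting error only, and the FDRs of the 2 genes were 0.19 and 0.228.

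The antiviral sensor kinase Eif2ak2 (PKR) was at 4.52 to 6.57 CPM in CD. It was at 5.94, 13.4 and 14.2 CPM in LPS_CD, so that the groups overlapped through the first LPS_CD mouse (log2 fold change 1.04 ± 0.33, FDR 0.297). Bst2, the tetherin that holds budding virions on the cell surface, was at 0.774 to 1.55 CPM in CD and at 2.07, 1.78 and 4.39 CPM in LPS_CD, without overlap (1.68 ± 0.50, FDR 0.269). Oasl2, an OAS-like protein, was at 10.1 to 11.5 CPM in CD. It was at 13.3, 14.4 and 14.4 CPM in LPS_CD, also without overlap with CD (0.42 ± 0.16, FDR 0.372). Unchallenged RP2M mice reached 1.95 CPM of Bst2 and 16.2 CPM of Oasl2, so both genes overlapped between LPS_CD and RP2M. The share of all genes without overlap between LPS_CD and CD was not counted. The other genes with an unadjusted p below 0.05 were Trim30d, Ddx58 (the RNA sensor RIG-I), Gbp6, Igtp, Irgm1 (all 3 interferon-inducible GTPases) and Parp14. Gbp6 differed with the suffix within CD. It was at 0.129 and 0.132 CPM in the 2 re mice of CD, at 0.476, 0.773 and 0.822 CPM in the 3 RE mice of CD and at 0.645, 0.891 and 1.38 CPM in LPS_CD, and its fitted log2 fold change of 2.76 ± 0.77 rests on the re mice. Without the first LPS_CD mouse, Irf7, Eif2ak2, Siglec1 and Ch25h passed the call rule, as did 154 genes higher and 92 lower of all 25788. Without the suffix term, Irf7, Siglec1 and Ch25h passed it, among 38 higher and 1 lower of all 23606. The genes described by mouse in the LPS groups were singled out after their values were seen, except Ch25h, which was called against RP2M below.

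**Figure D1:**
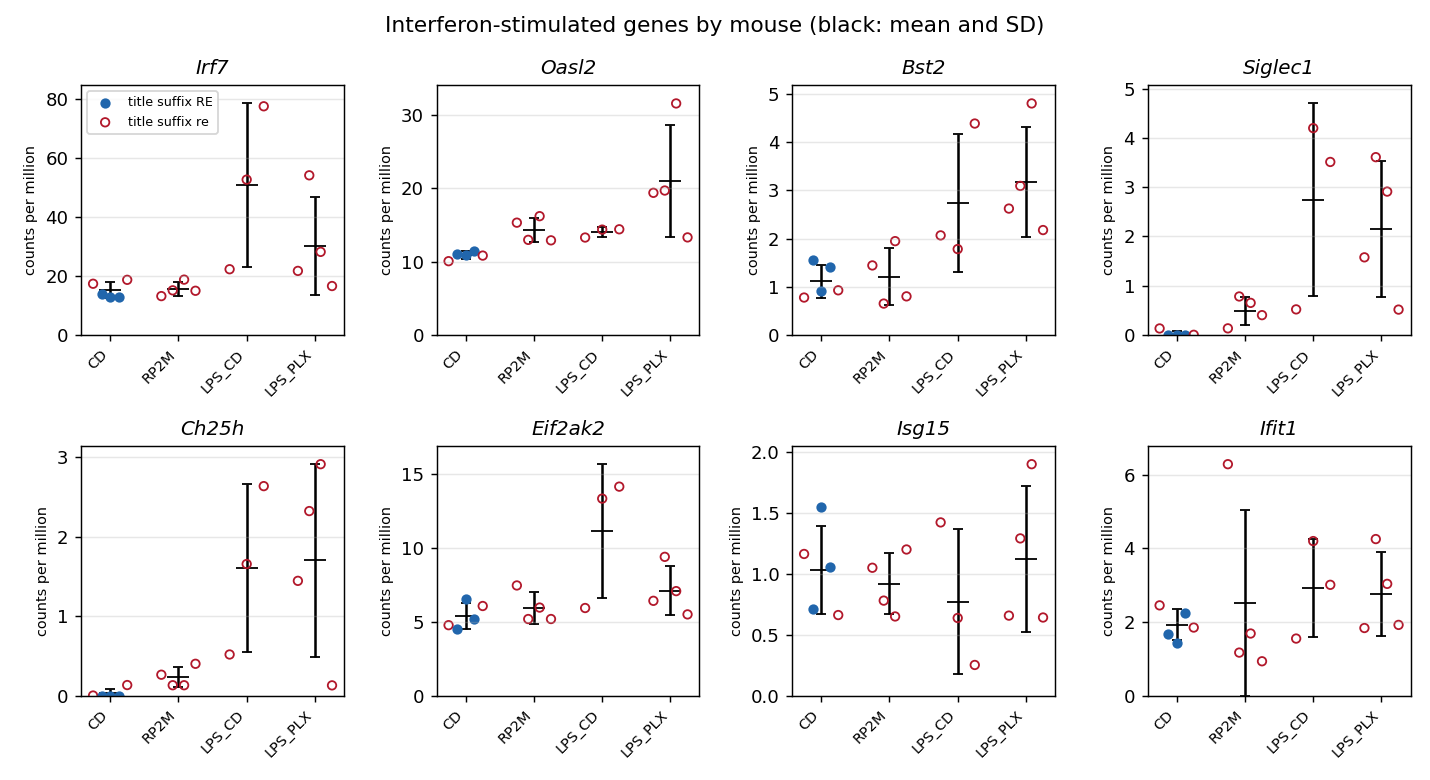
Level of 8 interferon-stimulated genes in each mouse of CD, RP2M, LPS_CD and LPS_PLX, in CPM on linear axes that start at 0. Points are mice, filled for the title suffix RE and open for re, and black bars are the mean and SD. Irf7 reached 77.4 CPM in LPS_CD and 54.0 CPM in LPS_PLX, while Isg15 stayed below 2 CPM in all 4 groups.

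In LPS_PLX against CD, challenged retina of mice that had received PLX5622 was set against the control diet, and again most of the genes lay higher with none called. Mx1 did not pass the filter on low counts, and 40 of the 41 genes were tested. The rule called 34 of 24262 genes (0.14%), none of them among the 40. DESeq2 called 16 genes higher and 3 lower and limma 1 and 2, also none of the 40. The likelihood ratio test called 57 higher and 6 lower, among them Bst2, Ch25h, Oasl2 and Siglec1. An unadjusted p below 0.05 was found for 12 higher genes (30.0%) and 0 lower ones, against 4.6% and 3.04% of all genes. Siglec1, Ch25h and Trim30d, with 1 count each over the CD mice, passed the filter only through the LPS_PLX mice and lend the count no support. Of the 26 genes with a mean of at least 1 CPM over all 65 mice, 5 were higher (19.2%), Bst2 among them. Of the 40 log2 fold changes 36 were positive, with a median of 0.42 against 0.00 over all genes. Without the first CD mouse 7 were higher at the unadjusted threshold instead of 12.

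The lowest FDRs belonged to Siglec1 (0.0147), Oasl2 (0.019) and Bst2 (0.0277). Oasl2 was at 19.4, 19.7, 31.6 and 13.3 CPM in the LPS_PLX mice. All 4 lay above the highest CD mouse at 11.5 CPM, and the log2 fold change was 1.01 ± 0.21. Bst2 was at 2.62, 3.09, 4.81 and 2.18 CPM, also above every CD mouse (1.88 ± 0.42). Siglec1 was at 1.57, 3.61, 2.91 and 0.512 CPM, which gave a ratio to CD of 88.5 (exact 95% interval 15.4 to 3549). For these 3 genes, picked by their FDRs, every LPS_PLX mouse thus lay above every CD mouse. The share of all tested genes that do so was not counted. The fourth LPS_PLX mouse had 4 counts of Siglec1, next to the floor of 3.

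Irf7 was at 21.6, 54.0, 28.1 and 16.5 CPM in LPS_PLX, and the fourth mouse lay within the range of CD (0.74 ± 0.25, FDR 0.326). Ch25h was at 1.44, 2.32, 2.91 and 0.128 CPM, and the fourth mouse had 1 count, as the highest CD mouse did (ratio 70.0, 12.04 to 2818, FDR 0.0613). The fourth LPS_PLX mouse was thus the lowest of its group for Irf7, Oasl2, Bst2, Siglec1 and Ch25h. Without it, Ch25h, Oasl2 and Siglec1 passed the call rule, among 61 genes higher and 6 lower of all 23601. Trim30d, Oas2, Rtp4, Ifi44, Ddx58, Gbp6 and Parp14 were the other genes with an unadjusted p below 0.05. For Oas2, Rtp4, Ifi44 and Gbp6 the 2 re mice of CD lay below its 3 RE mice, and LPS_PLX overlapped the RE mice. Ifi44 was at 0 and 0.132 CPM in the re mice of CD and at 0.235 to 1.29 CPM in the RE mice. In LPS_PLX it was at 0.384 to 0.787 CPM.

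LPS_PLX was also set against RP2M, an unchallenged repopulated group whose mice all carry the suffix re, so that no suffix term was needed. All 41 genes were tested, and 1 was called, where 109 of 24927 genes passed the rule (0.437%). At an unadjusted p below 0.05, 13 were higher (31.7%) and 0 lower, against 7.54% and 6.41% of all genes. Of the 41 log2 fold changes 31 were positive, with a median of 0.33 against -0.01 over all genes. The called gene was Ch25h, at 0.262, 0.130, 0.130 and 0.399 CPM in RP2M (7 counts in all) and at 53 counts in LPS_PLX. The ratio was 7.52 (exact 95% interval 3.41 to 19.6), the fitted log2 fold change 2.81 ± 0.63 and the FDR 0.00997. The fourth LPS_PLX mouse lay within the range of RP2M. The call was lost with DESeq2 (FDR 0.0123), with RLE normalization (FDR 0.0101) and without any 1 of the other 7 mice (FDR 0.0297 to 0.106). In these fits 0 of the 41 genes were called.

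Irf7 (0.96 ± 0.22, FDR 0.0121), Bst2 (1.38 ± 0.32, FDR 0.0142) and Siglec1 (2.09 ± 0.50, FDR 0.0154) lay just outside the threshold. RP2M held Irf7 at 13.1, 15.1, 18.7 and 14.9 CPM, Bst2 at 0.649 to 1.95 CPM and Siglec1 at 0.131 to 0.779 CPM. Only Bst2 of these showed no overlap between the 2 groups. Without the fourth LPS_PLX mouse, Bst2, Ch25h, Irf7 and Siglec1 were called, among 156 genes higher and 15 lower of all 24454. Oasl2 was at 12.9 to 16.2 CPM in RP2M, above all CD mice, and its difference here was 0.55 ± 0.17 (FDR 0.0746). The other genes with an unadjusted p below 0.05 were Ifit2, Ifit3, Trim30d, Gbp2, Ifi27, Ifi44, Xaf1 and Parp14. Without the third LPS_PLX mouse 8 of the 41 were higher at that threshold instead of 13.

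Several genes often used to read out a type I interferon response overlapped their CD range in both LPS groups. Isg15, the ubiquitin-like modifier, was at 0.66 to 1.55 CPM in CD, at 1.42, 0.636 and 0.251 CPM in LPS_CD and at 0.656, 1.29, 1.90 and 0.640 CPM in LPS_PLX. Its log2 fold change against CD was -0.25 ± 0.65 in LPS_CD and 0.29 ± 0.52 in LPS_PLX. The 3 IFIT genes, which bind viral RNA or regulate its sensing, had log2 fold changes of 0.07 to 0.43 in LPS_CD and 0.10 to 0.35 in LPS_PLX against CD, with no unadjusted p below 0.05. Single mice spread widely. Ifit1 was at 1.42 to 2.45 CPM in CD and at 1.55, 4.20 and 3.01 CPM in LPS_CD. In LPS_PLX it was at 1.84, 4.25, 3.04 and 1.92 CPM. Against RP2M, however, Ifit2 (0.31 ± 0.14, FDR 0.298) and Ifit3 (0.47 ± 0.23, FDR 0.355) were among the genes with an unadjusted p below 0.05. For Rsad2 (viperin), which blocks viral replication at membranes, the log2 fold changes against CD were 0.23 ± 0.51 in LPS_CD and -0.12 ± 0.49 in LPS_PLX. Cmpk2, its neighbour, was at 0.13 ± 0.18 and 0.12 ± 0.18 against CD. Stat2 and Irf9, whose products bind the response element together, were at 0.20 ± 0.14 and 0.02 ± 0.23 in LPS_CD and at 0.12 ± 0.10 and -0.18 ± 0.13 in LPS_PLX. Usp18 was at 0.516 to 1.53 CPM in CD and at 0.129, 1.65 and 1.63 CPM in LPS_CD. In LPS_PLX it was at 1.31, 3.61, 2.91 and 0.384 CPM. For Isg15, Rsad2 and Usp18, each near 1 CPM in CD, an SE of 0.49 to 0.69 means that a log2 fold change of 1 was not detectable at this depth.

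Counted by role in LPS_CD against CD, the unadjusted threshold was passed upward by 1 of 4 transcription factors, 0 of 3 IFIT genes, 0 of 2 in Isg15 and its protease gene Usp18, 1 of 4 OAS genes, 2 of 7 restriction factors and TRIM proteins, 2 of 5 nucleic acid sensors, 3 of 7 GTPases, 1 of 7 other effectors and both macrophage genes. In LPS_PLX against CD the same counts were 1, 0, 0, 2, 3 (of 6 tested), 1, 1, 2 and 2, and in LPS_PLX against RP2M they were 1, 2, 0, 1, 2, 0, 1, 4 and 2. Over all genes tested, 5.63%, 4.6% and 7.54% were higher at that threshold in these comparisons, in the same order. Against CD, both macrophage genes (Siglec1 and Ch25h) and Trim30d passed the filter on low counts only through the LPS mice. They lend these role counts no support. Of the 18 genes whose promoter window holds the response element letters, 16 had a positive log2 fold change in LPS_CD and 17 in LPS_PLX, with medians of 0.32 and 0.36. Of the 11 whose window does not, 11 and 9 were positive, with medians of 0.17 and 0.28.

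**Figure D2:**
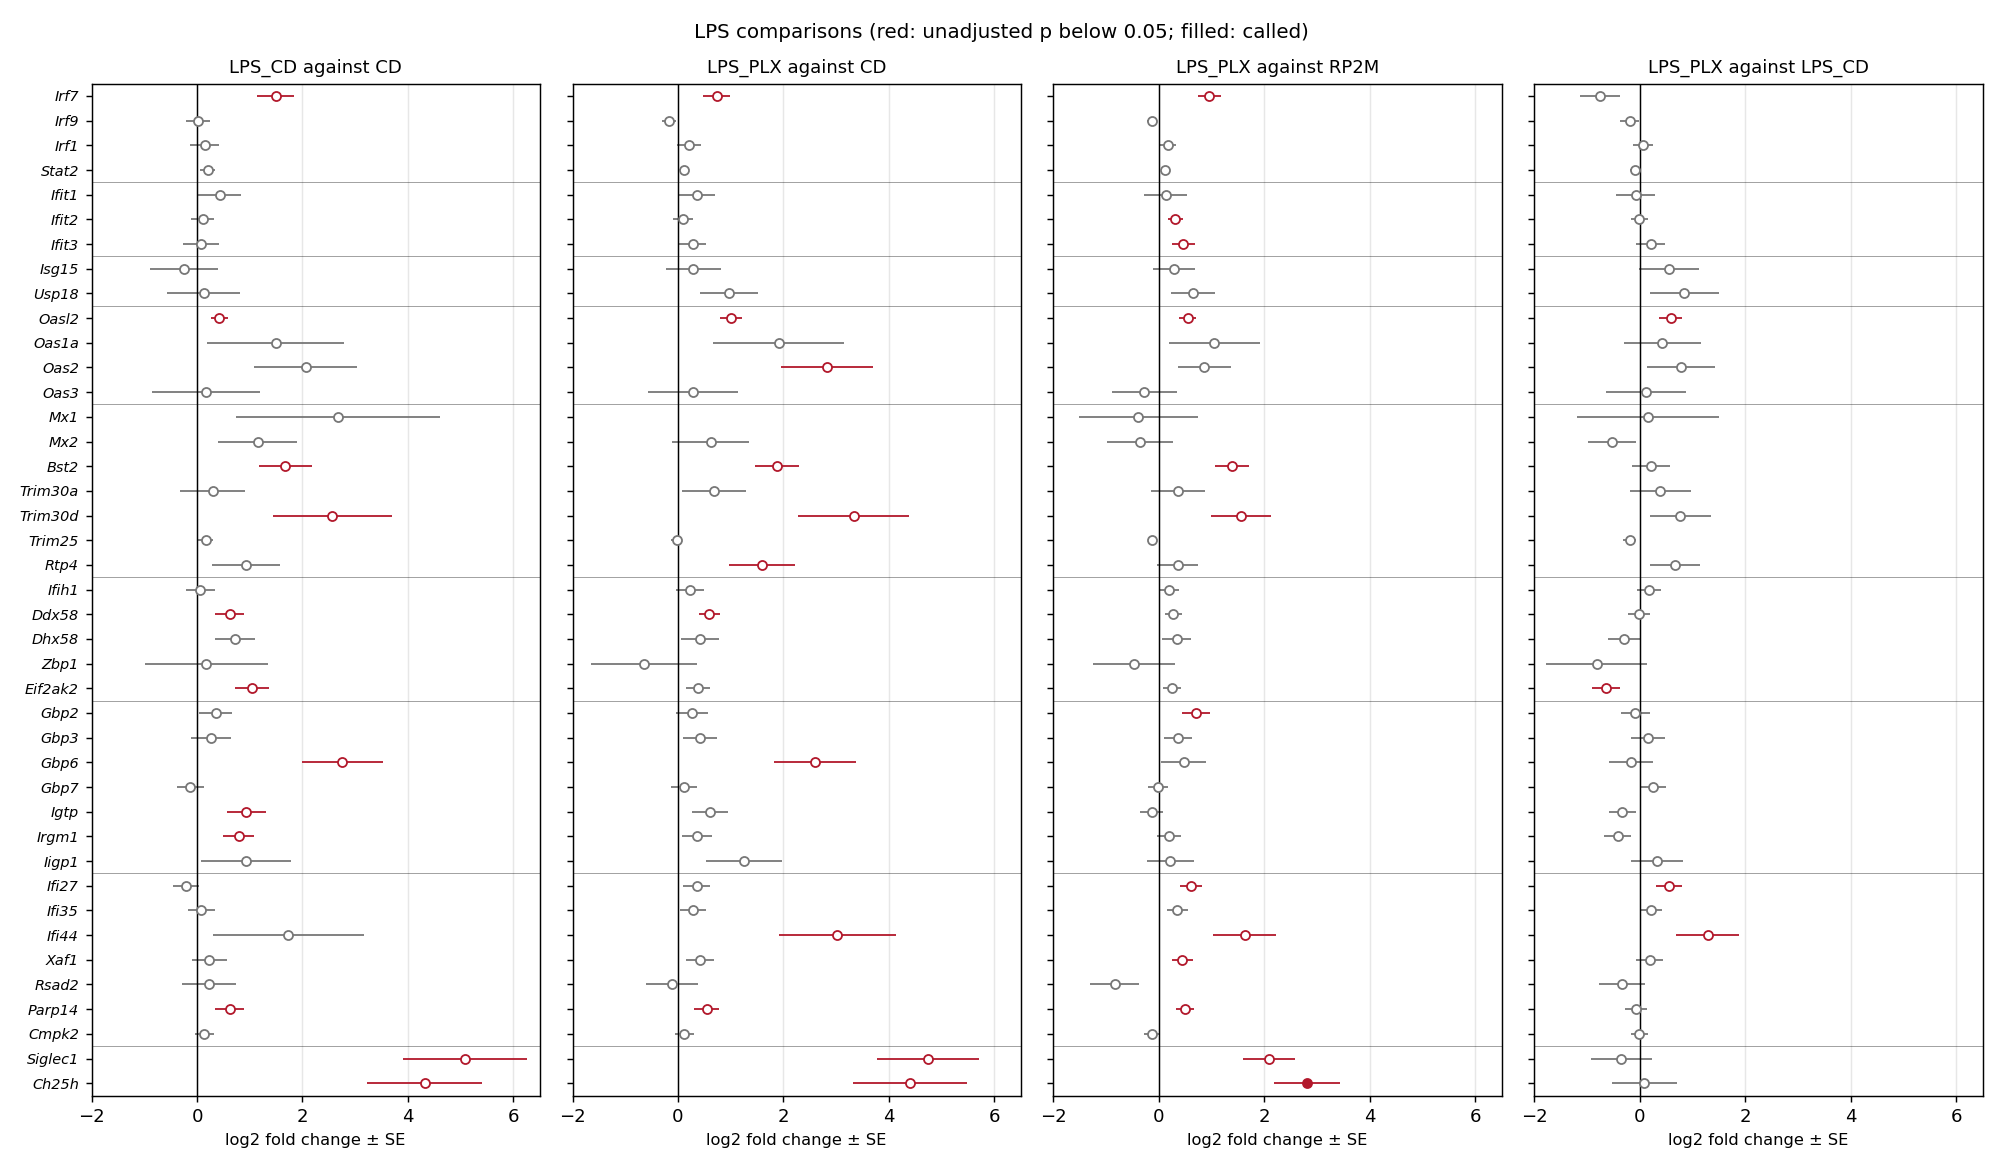
Log2 fold change and SE (horizontal axis) of the interferon-stimulated genes, ordered by role and divided by thin lines, in 4 comparisons with LPS groups. Red marks an unadjusted p below 0.05 and a filled point a called gene. Points of the first 3 panels lie mostly to the right of 0, those of LPS_PLX against LPS_CD on both sides of it, and Ch25h is the only filled point.

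The comparison of LPS_PLX with LPS_CD asked directly whether the challenged retinas of the 2 groups differed. The rule called 0.0% of 24500 genes by edgeR and by DESeq2. Limma called 5 higher and 5 lower, and 0 of the 41 were called by any of these. Before adjustment, 3 genes were higher in LPS_PLX and 1 was lower at p below 0.05, against 4.0% and 4.06% of all genes. The log2 fold change was positive for 22 and negative for 19, with a median of 0.08 against 0.01 over all genes and a median SE of 0.33.

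The 3 higher genes were Oasl2 (0.58 ± 0.22), the mitochondrial and nuclear envelope protein gene Ifi27 (0.56 ± 0.25) and Ifi44 (1.29 ± 0.60), and the lower one was Eif2ak2 (-0.65 ± 0.27), each with an FDR of 0.617. Oasl2 overlapped between the groups only through the fourth LPS_PLX mouse, which lay at 13.3 CPM. Ifi44 lay at 0.384 to 0.787 CPM in LPS_PLX and at 0.129 to 0.376 CPM in LPS_CD, where it did not exceed the floor. The lowest LPS_PLX mouse and the highest LPS_CD mouse each had 3 counts, so the groups met at the floor. Irf7 averaged 30.1 ± 16.7 CPM (SD, n = 4) in LPS_PLX and 50.7 ± 27.6 CPM (n = 3) in LPS_CD. The difference of -0.75 ± 0.37 had an FDR of 0.617, and the 2 groups overlapped. Siglec1, Ch25h and Bst2 differed by -0.35 ± 0.57, 0.08 ± 0.61 and 0.21 ± 0.36. With SEs of this size, these values do not show that the 2 groups were alike. Without the first LPS_CD mouse 54 genes were called higher and 32 lower in LPS_PLX, with 0 of the 41 among them, and the direction of the median turned (-0.14, 15 of 41 positive). Eif2ak2 then had an FDR of 0.0156. Without the third LPS_PLX mouse the median was -0.00 and 0 of the 41 had an unadjusted p below 0.05. LPS_PLX mice stand in 3 of the comparisons above and CD mice in 2, and in a further 2 below, so these share samples and are not independent of each other.

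Cell type markers moved with the LPS groups. The summed level of 21 microglia markers was 75.0 to 96.2 CPM in CD, 66.4 to 73.8 CPM in RP2M, 142 to 159 CPM in LPS_CD and 85.9 to 132 CPM in LPS_PLX, so LPS_PLX was no retina without microglia. Its lowest value belonged to the fourth LPS_PLX mouse. The summed level of 12 blood leukocyte markers was 1.29 to 8.25 CPM in CD, 1.30 to 4.66 CPM in RP2M, 7.25 to 11.4 CPM in LPS_CD and 10.9 to 22.6 CPM in LPS_PLX. Of the 8 tested, 8 were positive against CD in both LPS groups, and 1 was called in LPS_PLX. Against RP2M 4 leukocyte, 5 microglia and 3 endothelial markers were called higher in LPS_PLX, and against CD 3 microglia and 2 endothelial markers. Lyz2 contributed most in the LPS groups, the T cell gene Cd3e was at 0 in all 4 groups, and Ccr2 and Ly6c2 had at most 0.132 and 0.380 CPM. The summed level of 10 endothelial markers was 381 to 425 CPM in CD, 374 to 407 CPM in RP2M, 397 to 457 CPM in LPS_CD and 429 to 451 CPM in LPS_PLX. Although this sum moved little, 9 of the 10 endothelial markers had a positive log2 fold change against CD in both LPS groups, with medians of 0.70 and 0.64. The summed level of 4 erythrocyte markers was 3.10 to 10.9 CPM in CD, 3.41 to 6.12 CPM in RP2M, 1.03 to 3.94 CPM in LPS_CD and 0.262 to 2.30 CPM in LPS_PLX, which did not overlap with CD or RP2M. The part of these cells in the levels of the interferon-stimulated genes was not tested.

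**Figure D3:**
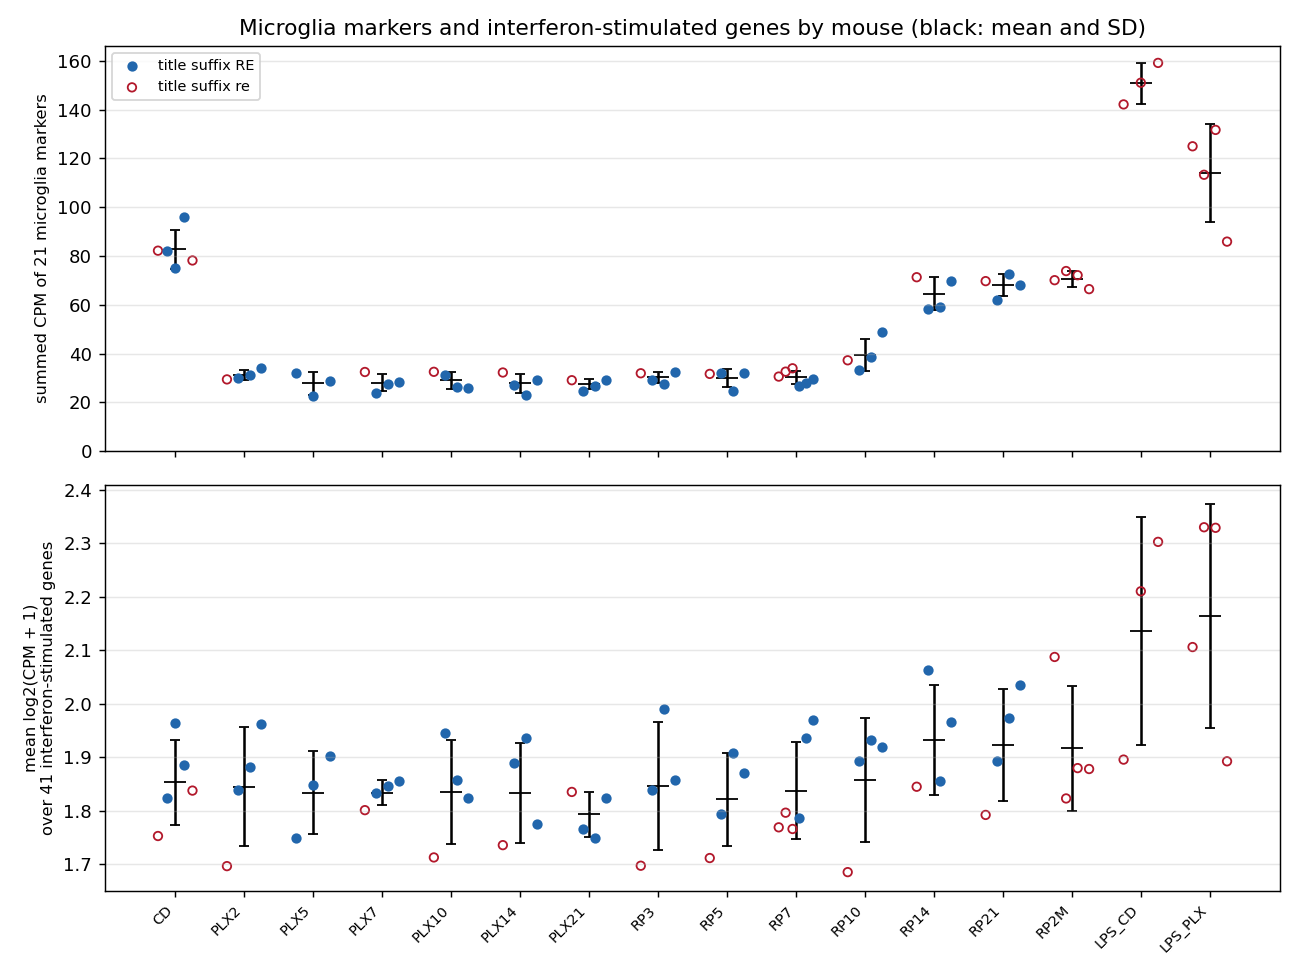
Summed level of 21 microglia markers in CPM (top, from 0) and mean of log2(CPM + 1) over the 41 interferon-stimulated genes (bottom) in each mouse of the 16 groups. Points are mice, filled for the suffix RE and open for re, with the mean and SD in black. The markers lie between 22.8 and 32.5 CPM in the depleted mice (PLX5 to PLX21), whose means over the 41 genes lie between 1.71 and 1.95.

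Across all groups, the mean of log2(CPM + 1) over the 41 genes was a description of the whole set. It ranged from 1.69 to 2.09 in the 58 unchallenged mice. It was 1.90, 2.21 and 2.30 in LPS_CD and 2.11, 2.33, 2.33 and 1.89 in LPS_PLX, so that 1 mouse of each LPS group lay within the unchallenged range and the others above it. The group means of unchallenged mice ran from 1.79 in PLX21 to 1.93 in RP14, where CD was at 1.85 ± 0.0786 (SD, n = 5).

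The range of single genes across the 14 unchallenged groups differed from gene to gene. Stat2 had group means of 57.2 CPM (PLX7) to 64.4 CPM (RP3), Irf9 of 23.4 CPM (PLX7) to 30.5 CPM (RP3) and Irf7 of 11.2 CPM (RP10) to 15.4 CPM (RP2M). Ifit2 ran from 8.54 CPM in RP2M to 15.3 CPM in RP10, and it moved with the title suffix, at 9.13 CPM in the unchallenged re mice and 15.3 CPM in the unchallenged RE mice. Cmpk2 ran from 10.2 CPM (PLX7) to 12.1 CPM (PLX5) and Eif2ak2 from 5.05 CPM (PLX2) to 6.60 CPM (RP21). Bst2 was lowest in PLX10 at 0.508 CPM and highest in RP14 at 1.44 CPM, a ratio of 2.83, where the ratio for Stat2 was 1.13. For Irf7, the LPS_CD mean of 50.7 CPM thus lay above every unchallenged group mean, and the single highest unchallenged mouse was at 21.9 CPM, below the lowest LPS_CD mouse.

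Without LPS, the question was whether the retinal level of these genes depends on microglia. For depletion, the 19 mice of PLX5 to PLX21 were set against CD. The rule called 41 of 22776 genes (0.18%), among them 19 of the 21 microglia markers, all lower. It called 0 of the 39 interferon-stimulated genes tested by edgeR, DESeq2 and limma, while Mx1 and Siglec1 did not pass the filter on low counts. At an unadjusted p below 0.05, 0 of the 39 were higher and 1 was lower, against 2.95% and 3.51% of all genes. The log2 fold change was negative for 27 of the 39, with a median of -0.08 against -0.00 over all genes.

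The lower gene was Ifi35, an adaptor of the interferon response, at 3.09 ± 0.728 CPM (SD, n = 19) in the depleted mice and 4.08 ± 0.587 CPM (n = 5) in CD (log2 fold change -0.43 ± 0.15, FDR 0.581). The groups overlapped. Irf7 ranged from 8.15 to 16.3 CPM over the depleted mice, against 12.8 to 18.6 CPM in CD. Oasl2 averaged 10.8 ± 1.36 CPM in the depleted mice and 10.9 ± 0.525 CPM (n = 5) in CD. The median microglia marker fell by 4.55 on the log2 scale in the same comparison, whereas the log2 fold changes of the 26 interferon-stimulated genes with a mean of at least 1 CPM lay between -0.43 and 0.14.

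For repopulation, the 12 mice of RP14, RP21 and RP2M were set against CD and against the depleted mice. Against CD the rule called 1 of 23075 genes (0.00433%) and 0 of the 41 by edgeR, DESeq2 and limma. Before adjustment 5 were higher and 0 lower at p below 0.05, against 4.78% and 4.43% of all genes. The 5 were Oasl2 (0.28 ± 0.09, FDR 0.51), Gbp6, Trim30d, Siglec1 and Ch25h. The last 3 had 1 count each over the CD mice and passed the filter on low counts through the repopulated mice, so the count of 5 is no support for a difference. Of the 26 genes with a mean of at least 1 CPM, 1 was higher (3.85%). Of the 41 log2 fold changes 32 were positive, with a median of 0.16, and 0.05 over the 26 genes with a mean of at least 1 CPM.

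Against the depleted mice, with no CD mouse in the comparison, the rule called 49 of 22629 genes (0.217%), 17 of them microglia markers, and 0 of the 40 interferon-stimulated genes tested by edgeR, DESeq2 and limma. Oas1a did not pass the filter. An unadjusted p below 0.05 was found for 9 higher genes (22.5%) and 0 lower ones, against 4.71% and 4.25% of all genes. Siglec1 and Mx1 are among the 9 and passed the filter on low counts only through the repopulated mice, so they lend the count no support. Of the 26 genes with a mean of at least 1 CPM, 5 were higher (19.2%). Of the 40 log2 fold changes 38 were positive, with a median of 0.23 against -0.00 over all genes. In re mice alone it was positive for 35 of 41 (median 0.26) but only 2 had an unadjusted p below 0.05, where 1155 of all 24320 genes were higher at that threshold. In RE mice alone it was positive for 35 of 40 (median 0.22), and 7 were higher at that threshold, beside 1116 of 23050 genes. The median was 0.13 without the suffix term.

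The lowest FDR was that of Oasl2, at 8.62 to 13.7 CPM (median 10.7) in the 19 depleted mice and at 10.9 to 16.2 CPM (median 12.97) in the 12 repopulated mice. The ranges overlapped, and the log2 fold change was 0.29 ± 0.07 with an FDR of 0.0518. Its group means were 12.1 CPM in RP14, 13.4 CPM in RP21 and 14.4 CPM in RP2M, and lay between 9.82 and 12.01 CPM in the PLX groups, and neighbours in this order did not differ beyond their SDs. Siglec1 had 19 counts over the depleted and 34 over the repopulated mice, a ratio of 3.01 (exact 95% interval 1.67 to 5.59), with an FDR of 0.461. The others were Irf9, Ifit3, Mx1, Mx2, Trim30d, Ddx58 and Cmpk2. Blood leukocyte markers summed to 0.479 to 3.15 CPM in the depleted and 1.30 to 7.61 CPM in the repopulated mice, and their part in these differences was not tested.

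**Figure D4:**
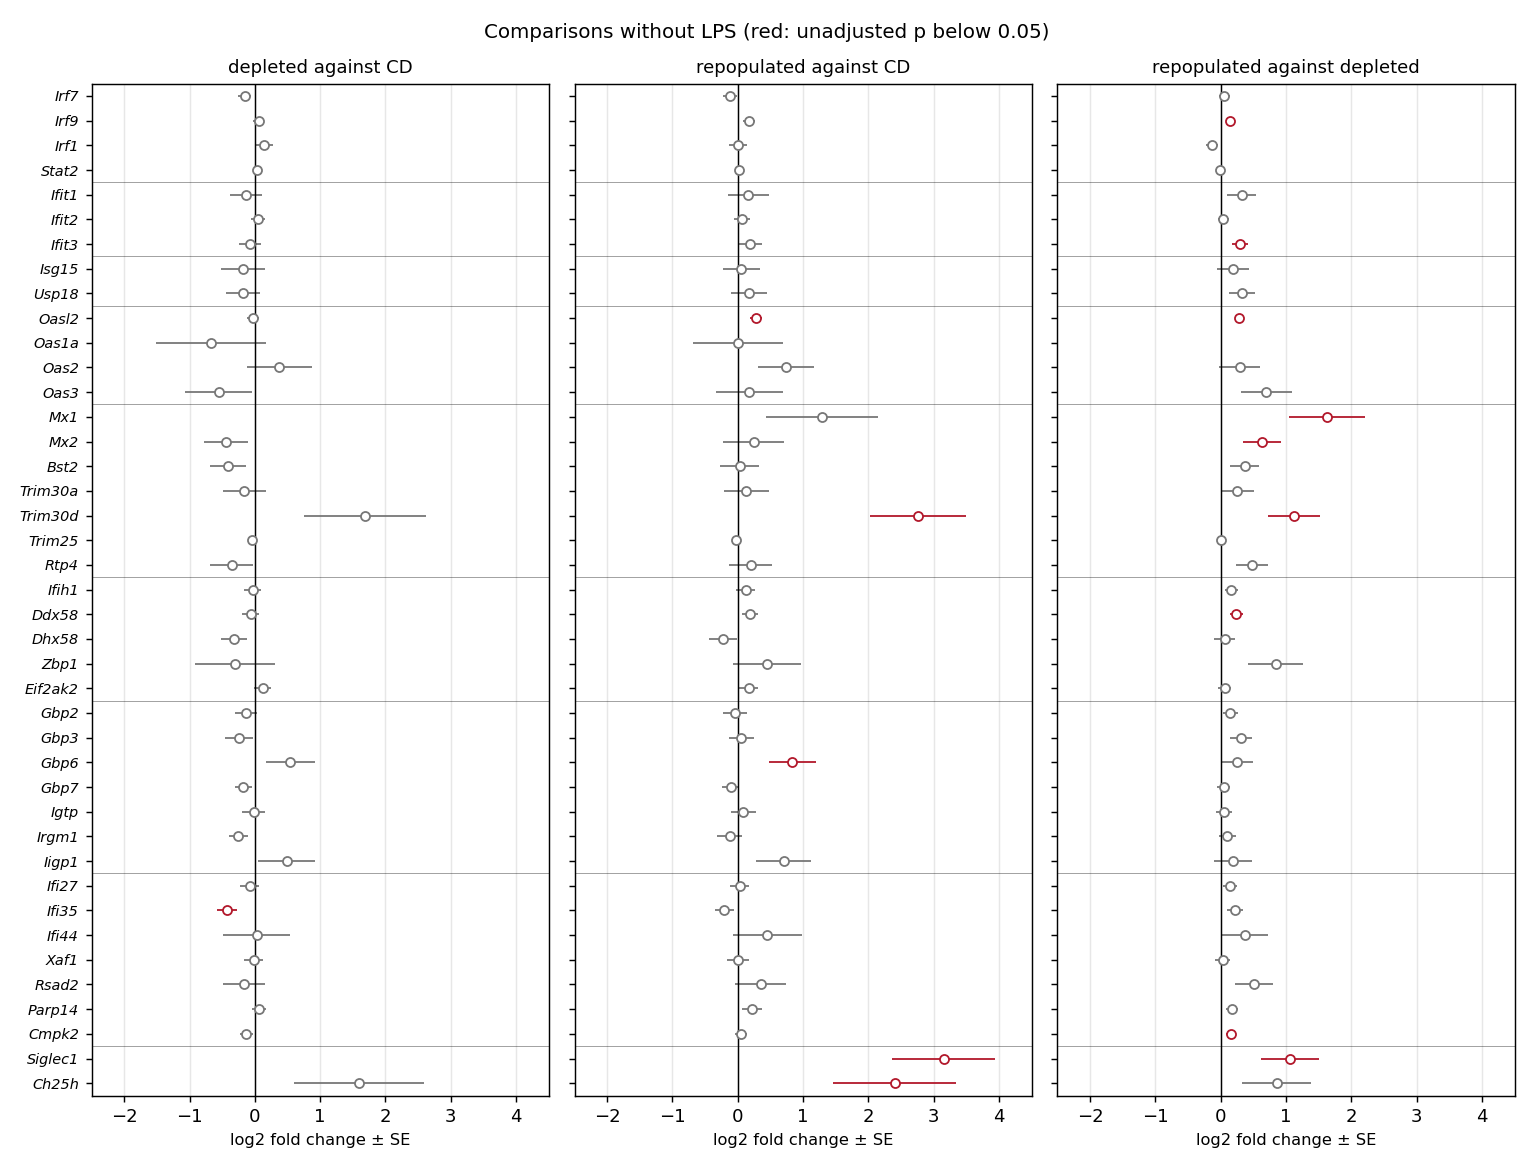
Log2 fold change and SE (horizontal axis) of the interferon-stimulated genes in the 3 comparisons without LPS, ordered by role. Red marks an unadjusted p below 0.05, and no gene was called. In the third panel, repopulated against depleted, 38 of the 40 points lie to the right of 0.

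Other genes of the pathway were read from lists of 32 genes each. Of the genes that make, sense or carry the interferon signal, 28 were tested in each comparison. None was called in a comparison with an LPS group. At an unadjusted p below 0.05, 5 were higher in LPS_CD against CD (Socs3, Stat3, Ikbke, Tlr7 and Tbk1), where 5.63% of all genes were, and 3 in LPS_PLX against CD (Socs3, Stat3 and Tlr7), where 4.6% of all genes were. Socs3, a feedback inhibitor of STAT3 signalling, had FDRs of 0.169 and 0.023.

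In repopulated against depleted mice 2 genes of this list were called, where the rule called 49 of all 22629 genes (0.217%). Both are known from microglia and other myeloid cells. The phosphatase gene Ptpn6 was at 0.314 ± 0.123 and 0.935 ± 0.398 CPM in the depleted and repopulated mice (FDR 8.65e-05). The RNA receptor gene Tlr7 was at 0.00637 and 0.174 CPM (FDR 0.000184), where both means are under the floor. Tlr7 passed the filter on low counts only through the repopulated mice, so its call lends no support. Of the 32 other interferon-responsive genes, 28 to 31 were tested, and only Ifitm3, which restricts viral entry, was called. The call was in LPS_PLX against RP2M, where 109 of 24927 genes passed the rule (0.437%). Ifitm3 was at 2.46 ± 0.784 CPM (SD, n = 4) in RP2M and 8.99 ± 4.504 CPM (n = 4) in LPS_PLX (log2 fold change 1.86 ± 0.30, FDR 0.000342). Against CD at 3.41 ± 0.591 CPM its FDR was 0.0173 in LPS_PLX and 0.104 in LPS_CD. At an unadjusted p below 0.05, 4 of 29 were higher and Samhd1 was lower in LPS_CD against CD, where 5.63% and 4.91% of all genes were. In LPS_PLX against CD 8 of 30 were higher, where 4.6% of all genes were. The median log2 fold change of this list was 0.37 in LPS_CD and 0.41 in LPS_PLX against CD.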

How the data were processed

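Retinal RNA was sequenced as single 50-base reads (BGISEQ-500), aligned to mm10 with HISAT2 and counted per gene with HTSeq by the authors, who also deposited FPKM values from StringTie. Versions are not given in the sources used here. The deposited counts were raw whole numbers per gene and mouse, and the deposited FPKM values were normalized for length and depth by the authors. Samples were grouped by their labels. Gene lists, members and roles were chosen with earlier results of these data known.

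Counts were scaled by TMM and tested with edgeR 4.0.16 (quasi-likelihood, two-sided, Benjamini-Hochberg FDR) in R 4.3.3, one fit per comparison over all genes with at least 1 count in a share of 0.5 of the mice of either side. The title suffix was a covariate where both suffixes were present. Genes with an FDR below 0.01 and a log2 fold change beyond 1 were called, and the naming rule gives values by mouse for called members. Other members were named after their values were seen. The first principal component (55.9% of the variance over 12346 genes) separated the suffixes. Levels are CPM, and FPKM only for comparisons between genes. Depleted mice are PLX5 to PLX21, and repopulated mice are RP14, RP21 and RP2M. Ratios of genes near 0 were taken from summed counts with exact intervals, which cover counting error only. Fits were tested on simulated counts. DESeq2 1.42.0, limma 3.58.1 on log2(FPKM + 0.1), other normalizations, filters, covariates and left-out mice were alternatives. Nothing states that replicates were pooled, and p-values measure the spread between mice. The labels do not give the mice's cages or dates, and an effect of these was not tested. 1 gene of the signalling list is not reported here.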

Additional observations from a re-analysis of the deposited data

Results flagged for a closer look

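In groups of 4 to 10 mice, a mouse was singled out when its gap to the nearest other mouse was a large share of the group's range (Dixon's 95% critical value). Of 48 such checks, 5 found the highest mouse apart, where the critical value is set for about 1 in 20 by chance. A single count beside 0 in all other mice always exceeds it, so the 5 cannot be read as an excess. In CD, the mouse labelled 2M had 0.132 CPM of Trim30d and 0.132 CPM of Ch25h, and the first mouse had 0.129 CPM of Siglec1, with 0 in the other 4 mice of CD. Each of these values is a single count. The third CD mouse had 1.29 CPM of Ifi44, the next highest 0.238 CPM. The first RP2M mouse had 6.29 CPM of Ifit1, the next highest 1.69 CPM.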

How the results depend on the processing

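The count of called interferon-stimulated genes depended on the setting in 3 comparisons. In LPS_CD against CD it was 0 and became 3 without the suffix term, 2 with the likelihood ratio test, 4 with no gene filter, 5 with all 16 groups in one fit, and 0 to 4 when 1 mouse was left out. Calls over all genes rose as well. Of all 23606 genes, 38 higher and 1 lower were called without the suffix term, and 53 and 5 with the likelihood ratio test. With no gene filter 153 and 35 of 29288 were called, and with all 16 groups 196 and 41 of 28211. In LPS_PLX against CD the count of called interferon-stimulated genes was 0 and became 3 without the suffix term, 4 with the likelihood ratio test, 4 with no gene filter, 5 with all 16 groups, 3 at an FDR below 0.05 with no fold threshold, and 0 to 3 when 1 mouse was left out. Of all 24262 genes, 51 higher and 2 lower were called without the suffix term, and 57 and 6 with the likelihood ratio test. With no gene filter 94 and 6 of 29611 were called, and with all 16 groups 73 and 2 of 28211. At an FDR below 0.05 they were 97 and 25. In LPS_PLX against RP2M the count of called interferon-stimulated genes was 1 and became 0 with DESeq2, RLE normalization, filterByExpr and limma, 3 with the likelihood ratio test and with no gene filter, 2 with all 16 groups, 4 at an FDR below 0.05, and 0 to 4 when 1 mouse was left out. Of all 24927 genes, 76 higher and 9 lower were called with DESeq2, 97 and 11 with RLE normalization, and 2 and 3 with limma. The likelihood ratio test called 137 and 15, and an FDR below 0.05 alone 466 and 262. With filterByExpr 59 and 9 of 15455 were called, with no gene filter 162 and 17 of 29318, and with all 16 groups 90 and 6 of 28211. The cause of these changes was not tested. In LPS_PLX against LPS_CD and the 3 comparisons without LPS the count of called interferon-stimulated genes was 0 in every alternative run.

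The deviations of mice with the same replicate number from their group means correlated at -0.044 to 0.039 between LPS_CD and CD. The correlations were -0.111 to 0.047 between LPS_PLX and CD, and -0.0048 to 0.0626 between LPS_PLX and RP2M. Between LPS_PLX and LPS_CD all were positive, at 0.013 to 0.204. They were -0.49 to 0.56 between depleted mice and CD, -0.53 to 0.064 between repopulated mice and CD, and -0.59 to 0.68 between repopulated and depleted mice. The labels do not state that equal numbers mark pairs, and the main fits did not pair the mice. With a replicate block 3 interferon-stimulated genes were called in LPS_PLX against RP2M, among 139 higher and 14 lower of all 24927. In LPS_CD against CD the block left too few degrees of freedom for the suffix term and took its place. There 3 interferon-stimulated genes were called, as without the suffix term alone, among 66 higher and 30 lower of all 23606. With the block 0 were called elsewhere.

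Of 864 values of single genes under alternatives, 801 kept their direction and side of the threshold, 50 passed it newly, 10 lost it and 3 turned. The 3 were those of Ifi44 in LPS_CD against CD, which had a log2 fold change of 1.73 and became -0.54 without the suffix term, -0.11 with limma and -0.78 with the replicate block in place of the suffix term. The difference in mean level between LPS_CD and CD was 0.283 and ranged from 0.200 to 0.403 when 1 mouse was left out. In re mice alone, an alternative added after the data were seen, it was 0.341. Leaving out each mouse of repopulated against depleted was not run. The depth of the libraries limits genes under about 1 CPM.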
